A study of Mus musculus with 6 samples.

Results

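The nuclear pore and nuclear transport genes of human acute myeloid leukemia (AML) cells grown in mice were examined. They were the rows whose gene symbol names a nucleoporin (a protein of the nuclear pore), an importin, an exportin, a component of the Ran cycle, or an mRNA export receptor. This choice by symbol found 69 of 13892 rows in the deposited table. The rule reads symbols only, but it was chosen with earlier results of these data known. Of the 69 rows, 67 reached at least 1 CPM (reads scaled to a common normalized library size) in at least 3 libraries and were tested.

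The nuclear pore is a channel through the nuclear envelope, built of nucleoporins that form a scaffold, a barrier of flexible phenylalanine-glycine repeats, filaments on the cytoplasmic side and a basket on the nuclear side. Proteins with a nuclear localization signal are bound by importin alpha, which importin beta carries through the pore. In the nucleus the GTP-bound form of the small GTPase Ran releases the cargo, and exportins need that form to bind theirs. In AML with mutant nucleophosmin, the protein gains an export signal for the exportin XPO1 and is held in the cytoplasm, and NUP98 and NUP214 are known as fusion partners in other leukemias.

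The leukemia had been produced with human hematopoietic stem cells transduced with NPM1c, the mutant nucleophosmin, and grown in NSG mice, an immunodeficient strain. Marrow of 3 moribund mice, from 3 independent transductions, was sorted into LSC (leukemic stem cells, positive for GFP, CD33 and CD123) and bulk leukemic cells (positive for GFP and CD33). All libraries thus came from NPM1c-transduced cells, with GFP as the surrogate for NPM1c, and no library without NPM1c was compared. The bulk gate did not use CD123, each population of each mouse gave 1 library, and the LSC and bulk libraries with the same replicate number came from the same mouse, which left 3 LSC and 3 bulk libraries. Which promoter drove NPM1c is not stated in the sources used here.

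Libraries held 10669560 to 14933494 reads. The 10 MTRNR2L rows, which are nuclear genes resembling mitochondrial ribosomal RNA, took 27.2% to 70.0% of them, and bulk replicate 1 had the fewest reads outside those rows (3423878, against 6132431 to 9571165 in the others). The value of 3 reads was 0.19 to 0.514 CPM, a limit that covers counting error only. IL3RA, which encodes CD123, had 139.5, 47.99 and 135 CPM in LSC, against 1.54, 2.12 and 2.37 CPM in bulk, and CD33 had 6.8, 8.05 and 1.17 CPM in LSC, against 4.45, 8.21 and 13.1 CPM in bulk. The marker lists differed in summed level between the populations, and their part in the results below was not tested. Plasmacytoid dendritic cell markers summed to 1967 to 3479 CPM in LSC and 137.8 to 376.4 CPM in bulk. In LSC 15 of 15 rose, against 2.71% of all genes. The 15 and the sums include IL3RA, whose product CD123 was used to sort LSC, so its rise was favoured by the gate. Genes of the G2 and M phases summed to 1225 to 2004 CPM in LSC and 4627 to 8893 CPM in bulk, and 9 of 22 fell (19 with the mouse as a block). Granulocyte markers summed to 902.8 to 3310 CPM in LSC and 3889 to 7825 CPM in bulk, with 0 of 9 past the threshold, 3 lower at an unadjusted p under 0.05, and 8 lower with the mouse as a block. Erythroid markers summed to 20.7 to 107.1 CPM in LSC and 134.5 to 474.3 CPM in bulk (of 10 tested 3 fell without the block and 8 with it), and B lineage markers to 133.1 to 211.4 CPM in LSC and 150.3 to 1078 CPM in bulk (of 9 tested 2 fell without the block, and 4 fell and 1 rose with it). In LSC replicate 3 PRTN3, AZU1, CEBPE, VPREB3, ALAS2, AHSP and EPOR had 0 reads, and the plasmacytoid dendritic cell markers LILRA4 (bulk replicates 1 and 2), PACSIN1 and NRP1 (bulk replicate 1) and GZMB (bulk replicate 3) had 0 in bulk. In sorted populations, fewer cells of a type and less RNA per cell cannot be told apart.

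Most nuclear transport genes stood somewhat lower in LSC than in bulk. The number past the threshold depended on the pairing of libraries by mouse, with 2 members in the unpaired fit and 11 in the paired fit. Of the 67 tested rows, 51 had a negative log2 change (LSC minus bulk), against 50.2% of all 13755 genes tested, and 39 were lower in LSC in each of the 3 mice, against 25.8% of all genes. Another 8 were higher in each mouse, against 27.3%. The median log2 change was -0.35 over the 67 rows and 0.00 over all genes, and the median in mice 1, 2 and 3 was -0.32, -0.33 and -0.46. The 67 rows spread less than all genes, with log2 changes of -1.62 to 1.398 (SD 0.60) against an SD of 1.25 over all genes. The median size of the log2 change differed less, at 0.46 over the 67 rows and 0.57 over all genes. All LSC libraries lay below all bulk libraries for 22 of the 67 rows (32.8%), against 11.9% of all genes. All LSC libraries lay above for 3 rows (4.48%), against 13.2% of all genes. Under 5 other scalings or models the number of negative rows was 48 to 53, and rows that changed sign had a log2 change of at most 0.05 in size.

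With limma across all genes and a threshold of 0.05 on the Benjamini-Hochberg adjusted p, 2 members fell in LSC, CSE1L and KPNB1, against 1.33% of all genes. No member rose, against 2.71% of all genes. At an unadjusted p under 0.05, 12 members were lower, against 10.1% of all genes, and 2 higher, against 10.2%. With voom on recovered reads 2 members were lower, against 1.15% of all genes, and 0 higher, against 2.31%. With the mouse as a block in the design, 10 members fell, against 7.71% of all genes, and 1 rose, against 8.25%. The 10 were CSE1L, KPNB1, XPOT, NUP155, KPNA2, NUP188, NUP153, KPNA3, IPO5 and IPO7, and the 1 was NUPL2. Of these 11 calls 9 were made with the block only, and each such gene is given with both adjusted p-values.

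**Figure D1:**
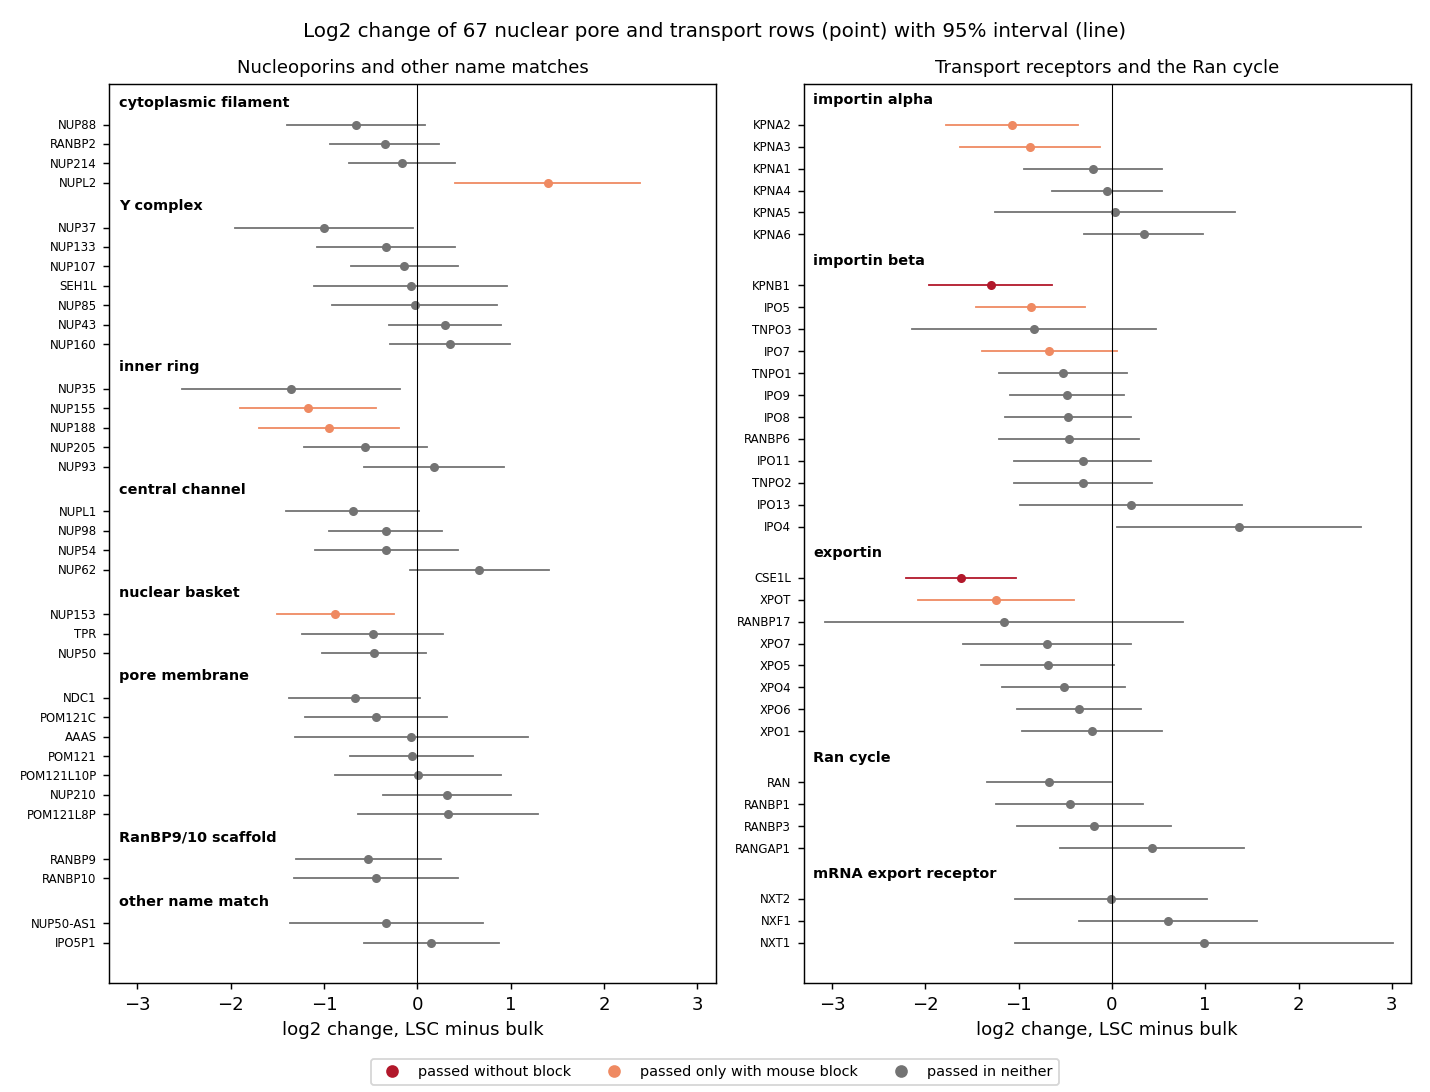
Log2 change (LSC minus bulk, x axis) of the 67 tested rows by role, as the estimate (point) with its 95% interval without the block (line). Dark red marks the 2 members past the threshold without the block, light red the 9 past it with the mouse as a block only, and grey the rest. Most points lie left of 0, and NUPL2 and IPO4 lie farthest to the right.

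The genes of the importin alpha and importin beta import cycle included both members that fell without the block. CSE1L, the exportin that returns importin alpha to the cytoplasm, had 118, 92.8 and 105 CPM in LSC replicates 1, 2 and 3, against 338, 267 and 369.7 CPM in bulk replicates 1, 2 and 3. Every bulk library was above every LSC library, and the 3 LSC values were close together. CSE1L was 3.07-fold lower in LSC (log2 change -1.62, SE 0.26, limma adjusted p = 0.0116), and its adjusted p was 0.00123 with the block. The call was kept in 14 of 19 alternative settings, with a log2 change of -1.75 to -1.52. It was lost without bulk replicate 1 (adjusted p = 0.0551), without both libraries of any 1 mouse (0.0626 to 0.164), and with a variance model without trend (0.0601).

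KPNB1, importin beta itself, had 96.3, 95.7 and 56.6 CPM in LSC replicates 1, 2 and 3, against 198, 204 and 192 CPM in bulk replicates 1, 2 and 3. The bulk libraries were nearly alike, and LSC replicate 3 was the lowest of all. KPNB1 was 2.46-fold lower (log2 change -1.30, SE 0.29, adjusted p = 0.0426), and its adjusted p was 0.00629 with the block. Its unblocked call was lost when any 1 of the 6 libraries was left out (adjusted p = 0.0571 to 0.151) or both libraries of any 1 mouse (0.139 to 0.24), and was kept in 9 of 19 settings. The log2 change was -1.43 to -1.04 over those settings.

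Importin alpha is made by several genes, and these are given in turn. KPNA2, a form abundant in dividing cells, had 73.2, 55.1 and 40.3 CPM in LSC replicates 1, 2 and 3, against 107, 99.8 and 141 CPM in bulk replicates 1, 2 and 3. No LSC library reached the lowest bulk library, and the gap was widest in mouse 3. Its log2 change of -1.07 (SE 0.31) passed with the block (adjusted p = 0.0305) but not without it (0.0973). KPNA3 had 37.5, 25.4 and 24.6 CPM in LSC, against 62.8, 38.03 and 60.2 CPM in bulk, also without overlap, and passed only with the block (0.0452, against 0.187 without). The other 4 importin alpha genes tested had overlapping groups. KPNA1 had a log2 change of -0.20, KPNA4 of -0.05, KPNA5 of 0.03 and KPNA6 of 0.34, the last with 81.7, 74.7 and 54.2 CPM in LSC, against 57.5, 56.5 and 50.2 CPM in bulk. The intervals of KPNA4 (-0.64 to 0.54) and KPNA6 (-0.30 to 0.98) leave room for changes both ways, for KPNA6 nearly as large as that of KPNA2. KPNA5 rested on 15 to 96 reads per library. Whether KPNA2 differed in its change from the other importin alpha genes was not tested.

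**Figure D2:**
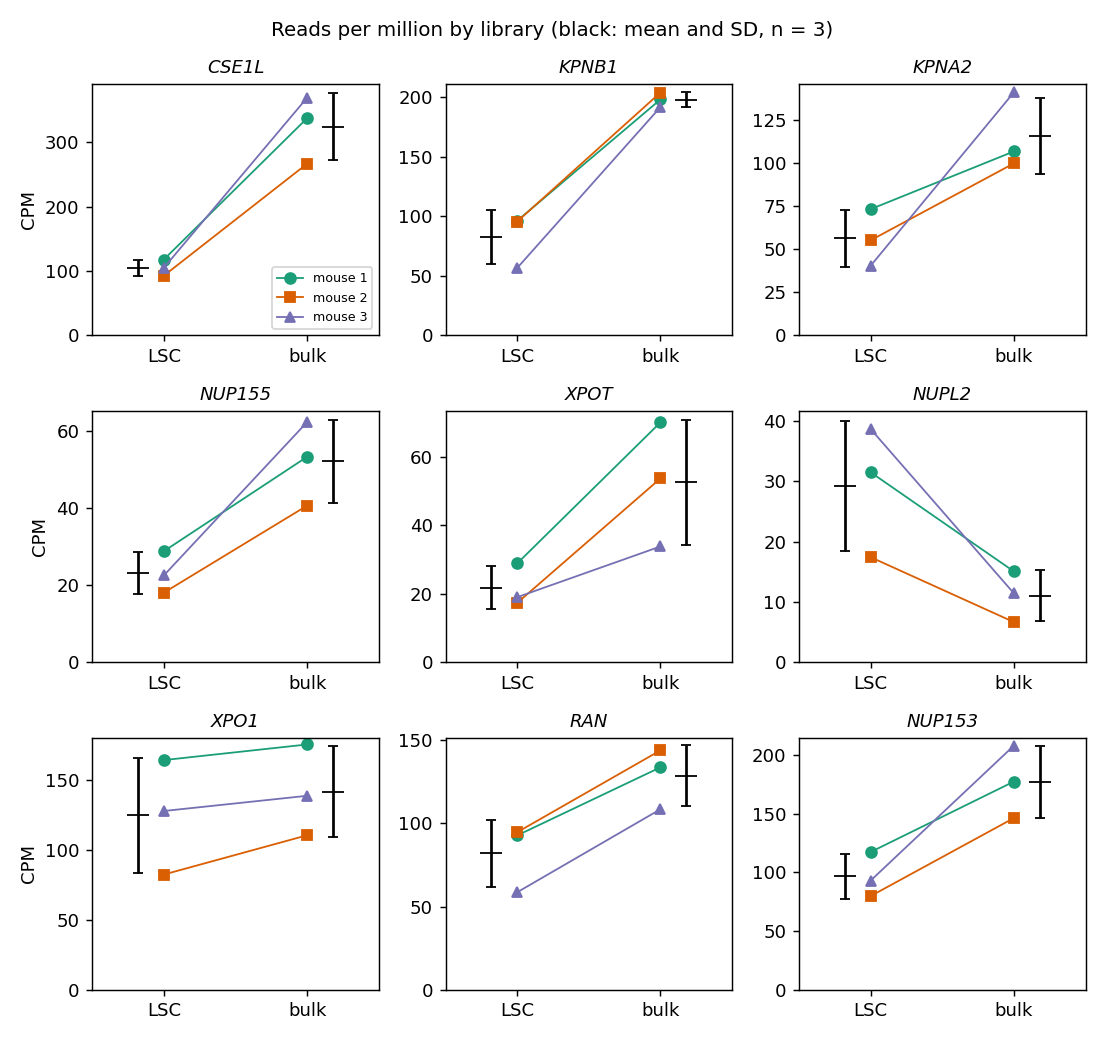
CPM per library (y axis) for 9 genes in LSC (left) and bulk (right), with lines joining the libraries of 1 mouse and black bars for mean ± SD (n = 3 each). CSE1L and KPNB1 were lower in LSC in every mouse with no overlap, NUPL2 was higher in LSC, and XPO1 differed more between mice than between populations.

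Among the 12 genes of the importin beta family, 10 had negative changes (83.3%, against 50.2% of all genes), with a median of -0.47. IPO5 and IPO7, which import ribosomal proteins among other cargo, passed with the block only. IPO5 had 78.7, 101 and 81.98 CPM in LSC replicates 1, 2 and 3, against 175, 160.1 and 142 CPM in bulk replicates 1, 2 and 3, and IPO7 had 122, 68.8 and 95.03 CPM in LSC replicates 1, 2 and 3, against 190.2, 111 and 152 CPM in bulk replicates 1, 2 and 3. IPO5 was without overlap, while the IPO7 groups overlapped because mouse 2 was low in both populations. The log2 change of IPO5 was -0.87 (adjusted p = 0.023 with the block, 0.103 without) and that of IPO7 -0.67 (0.0453 and 0.283). The IPO7 differences were -0.64, -0.69 and -0.68 in mice 1, 2 and 3, nearly equal. IPO5P1, a pseudogene row that may share reads with IPO5, had 36.1, 45.3 and 44.6 CPM in LSC, against 26.5, 44.04 and 45.6 CPM in bulk, and its log2 change was 0.15 without a call.

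IPO4, which imports histones H3 and H4 among others, had 5.54, 13.4 and 4.08 CPM in LSC replicates 1, 2 and 3, against 3.08, 3.22 and 1.79 CPM in bulk replicates 1, 2 and 3. The LSC libraries stood above all bulk libraries, with replicate 2 the highest. Its log2 change of 1.36 (SE 0.58) did not pass (adjusted p = 0.23, 0.0788 with the block), and it rested on 18 to 212 reads per library. TNPO3, which imports splicing factors of the SR family, had 59.2, 27.8 and 20.9 CPM in LSC, against 102, 81.1 and 23.7 CPM in bulk. Both libraries of mouse 3 were low, so the populations overlapped although LSC was lower in each mouse (-0.78, -1.55 and -0.19 in mice 1, 2 and 3, adjusted p = 0.453). Transportin genes TNPO1 and TNPO2, whose products import hnRNP proteins, had log2 changes of -0.53 and -0.31. IPO9, an importer of histones H2A and H2B, IPO8 and RANBP6 were each below bulk in all LSC libraries, with log2 changes of -0.48, -0.47 and -0.46, and did not pass. IPO11 had a change of -0.31, and IPO13, which carries cargo in both directions, of 0.20.

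All 8 exportin genes had negative log2 changes, against 50.2% of all genes, with a median of -0.69. All 8 were also lower in LSC in each of the 3 mice, against 25.8% of all genes. Besides CSE1L, the tRNA exportin XPOT passed with the block only. It had 28.9, 17.4 and 19.04 CPM in LSC replicates 1, 2 and 3, against 70.03, 53.7 and 33.8 CPM in bulk replicates 1, 2 and 3, without overlap, and was 2.37-fold lower (log2 change -1.24, SE 0.37, adjusted p = 0.103 without and 0.0148 with the block). XPO5, the exportin of microRNA precursors, had 15.2, 19.8 and 16.8 CPM in LSC, against 32.5, 28.1 and 23.1 CPM in bulk, and XPO4 had 46.6, 50.1 and 37.3 CPM in LSC, against 56.8, 56.6 and 79.7 CPM in bulk. Neither pair of groups overlapped, and neither gene passed (adjusted p = 0.26 and 0.351). XPO7 and its paralog RANBP17 showed wide differences between mice. XPO7 had 72.8, 50.1 and 25.7 CPM in LSC, against 86.1, 78.4 and 59.3 CPM in bulk, and RANBP17 4.51, 2.6 and 0.51 CPM in LSC, against 5.65, 5.76 and 2.11 CPM in bulk, both lowest in LSC replicate 3. RANBP17 rested on 7 to 68 reads per library. XPO7 and RANBP17 did not pass (limma adjusted p = 0.358 and 0.479 without the block, 0.0899 and 0.194 with it). XPO6, the exportin of actin, had a log2 change of -0.35.

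XPO1, the exporter of mutant nucleophosmin, had the smallest change of the 8. It had 165, 82.5 and 128 CPM in LSC replicates 1, 2 and 3, against 176, 111 and 139 CPM in bulk replicates 1, 2 and 3. The groups overlapped, and the order of the mice was the same in LSC and in bulk, with mouse 1 highest and mouse 2 lowest. The mean was 125 ± 41.1 CPM in LSC and 142 ± 32.7 CPM in bulk (SD, n = 3 each). The log2 change of -0.21 had a 95% interval of -0.96 to 0.53 (adjusted p = 0.757), and -0.65 to 0.23 with the block (0.493), so a decrease or an increase within these limits could not be told from none. Within mice the differences were -0.10, -0.42 and -0.12 in mice 1, 2 and 3. Without LSC replicate 2 the change was 0.06. For comparison, NPM1 had 516, 323 and 417 CPM in LSC, against 911, 733 and 788 CPM in bulk, without overlap. Its log2 change of -0.97 passed with the block (adjusted p = 0.00886) but not without it (0.0879), and its reads cannot be divided between transgene and resident gene.

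**Figure D3:**
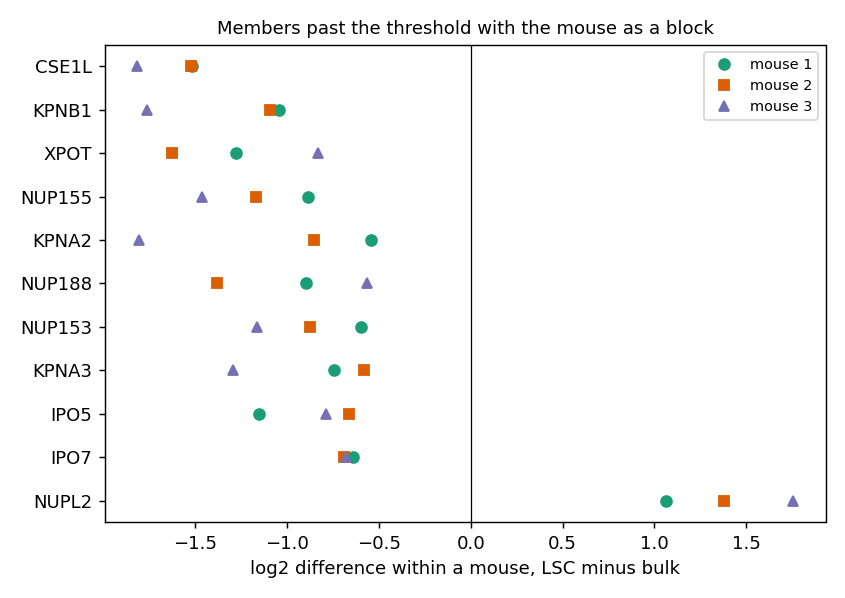
Log2 difference within each mouse (LSC minus bulk, x axis) for the 11 members past the threshold with the mouse as a block, 1 symbol per mouse. Each of the 10 lower genes is negative in all 3 mice and NUPL2 is positive in all 3, a direction that the selection favours.

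In the Ran cycle the GTPase itself and those of its regulators that matched by symbol are given first. RAN had 92.7, 94.7 and 58.6 CPM in LSC replicates 1, 2 and 3, against 134, 144 and 108 CPM in bulk replicates 1, 2 and 3. All LSC libraries were below all bulk libraries, and mouse 3 was lowest in both populations. Its log2 change of -0.67 (SE 0.30) did not pass (adjusted p = 0.241, 0.0525 with the block), although voom on recovered reads with the block called it (0.0387). RANBP1, a cofactor of GTP hydrolysis by Ran, had 17.1, 10.1 and 14.9 CPM in LSC, against 17.5, 17.3 and 21.9 CPM in bulk, also without overlap, with a log2 change of -0.45 (adjusted p = 0.502). RANGAP1, the GTPase-activating protein, had 22.2, 15.2 and 10.5 CPM in LSC, against 14.04, 14.3 and 7.23 CPM in bulk, with a change of 0.43 with overlapping groups. RANBP3, a cofactor of XPO1, had a change of -0.19. RANBP3L was at 0.813, 2.79 and 0.802 CPM in LSC, against 0.514, 0.508 and 1.28 CPM in bulk and did not reach the minimum level for the test. RCC1, a Ran pathway gene outside the choice by symbol, had a log2 change of -0.79 with overlapping groups. It did not pass (adjusted p = 0.563, 0.201 with the block), and was named after its value was seen.

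The nucleoporins are given by their place in the pore. Of 28 nucleoporin genes tested, 22 had negative changes (78.6%, against 50.2% of all genes), with a median of -0.34. All LSC libraries lay below all bulk libraries for 9 (32.1%, against 11.9% of all genes). They lay above for 2 (7.14%, against 13.2% of all genes). The inner ring, which joins the scaffold to the membrane and the channel, had the lowest median of the 6 locations, -0.95 over 5 genes. NUP155 had 28.9, 18.1 and 22.6 CPM in LSC replicates 1, 2 and 3, against 53.4, 40.7 and 62.4 CPM in bulk replicates 1, 2 and 3, and NUP188 had 16.7, 15.5 and 26.3 CPM in LSC replicates 1, 2 and 3, against 31.2, 40.4 and 38.9 CPM in bulk replicates 1, 2 and 3. Neither gene overlapped between populations. NUP155 was 2.25-fold lower (log2 change -1.17, SE 0.32, adjusted p = 0.0818, 0.0151 with the block), and NUP188 had a change of -0.95 (0.154 and 0.0452). NUP35 had 1.4, 3.11 and 3.06 CPM in LSC, against 6.16, 5.84 and 6.27 CPM in bulk, also without overlap but on 19 to 98 reads per library, and did not pass (adjusted p = 0.188). NUP205 had a log2 change of -0.56. NUP93, the linker that binds several of them, did not follow, with 34.2, 41.1 and 35.96 CPM in LSC, against 36.3, 42.9 and 22.3 CPM in bulk and a change of 0.18 that turned to -0.10 without bulk replicate 3.

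The nuclear basket had 3 genes, all lower in LSC in each mouse, against 25.8% of all genes. NUP153 had 117, 79.8 and 92.9 CPM in LSC replicates 1, 2 and 3, against 177, 146 and 208 CPM in bulk replicates 1, 2 and 3, without overlap, and a log2 change of -0.88 (SE 0.28) that passed with the block (adjusted p = 0.0226, 0.122 without). NUP50, a basket protein that helps release cargo from importin alpha, had 111, 102 and 92.9 CPM in LSC, against 146, 143 and 133 CPM in bulk. Its groups were tight and apart, yet its change of -0.47 did not pass (adjusted p = 0.323, 0.127 with the block). TPR, the filament protein of the basket, had 802, 429.5 and 637 CPM in LSC, against 982, 595 and 1012 CPM in bulk, where mouse 2 was low in both populations, and a change of -0.48 (adjusted p = 0.459, 0.0991 with the block).

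On the cytoplasmic side, NUPL2 was the member that rose with the block. Its product binds the mRNA export factor GLE1. NUPL2 had 31.5, 17.4 and 38.6 CPM in LSC replicates 1, 2 and 3, against 15.1, 6.69 and 11.4 CPM in bulk replicates 1, 2 and 3. Every LSC library was above every bulk library, and the lowest value of each population came from mouse 2. It was 2.64-fold higher (log2 change 1.40, SE 0.44, adjusted p = 0.119 without and 0.0142 with the block). NUP88 and NUP214, which form one complex there, had log2 changes of -0.66 and -0.17. NUP88 had 19.7, 19.2 and 27.2 CPM in LSC, against 32.4, 28.1 and 44.8 CPM in bulk, without overlap, and NUP214 had 90.2, 104 and 98.9 CPM in LSC, against 105, 122 and 104 CPM in bulk, with overlapping groups. Neither passed. RANBP2, the largest filament protein, which also binds SUMO-modified RANGAP1, had 299, 221 and 224 CPM in LSC, against 331, 271 and 342 CPM in bulk (log2 change -0.35, adjusted p = 0.484). RGPD genes share much of its sequence, so part of its reads may be assigned to them.

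The Y complex, the outer scaffold, was mixed, with a median log2 change of -0.07 over the 7 genes chosen by symbol. SEC13, also of this complex, lies outside that choice and is given further below. NUP37 had 3.47, 3.49 and 4.96 CPM in LSC, against 8.9, 7.11 and 7.68 CPM in bulk, without overlap, with a log2 change of -1.002 short of the threshold (adjusted p = 0.226). NUP43 and NUP160 had changes of 0.30 and 0.35, higher in LSC in each mouse, and did not pass. NUP107, NUP133 and NUP85 had changes of -0.14, -0.33 and -0.03. SEH1L had 14.2, 28.1 and 49.01 CPM in LSC, against 32.9, 32.01 and 21.6 CPM in bulk, so that LSC was lower in mouse 1 and higher in mouse 3. In the central channel NUPL1 and NUP54, partners in the channel complex, had changes of -0.69 and -0.33, while their partner NUP62 had 86.6, 48.6 and 57.98 CPM in LSC, against 49.3, 39.9 and 31.03 CPM in bulk and a change of 0.67 (adjusted p = 0.297, 0.0868 with the block). NUP98, whose gene also encodes NUP96 of the Y complex, had 68.1, 61.4 and 64.4 CPM in LSC, against 98.96, 75.1 and 73.5 CPM in bulk. The NUP98 groups did not overlap, but the change of -0.34 did not pass (adjusted p = 0.506).

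Among the membrane nucleoporins, NDC1 had 61.3, 44.6 and 35.3 CPM in LSC, against 82.01, 60.04 and 79.2 CPM in bulk, with a log2 change of -0.67 (adjusted p = 0.263). NUP210 had 34.7, 36.8 and 38.0 CPM in LSC, against 26.02, 38.6 and 24.8 CPM in bulk, with a log2 change of 0.32, and its LSC values were closer together than its bulk values. POM121 and POM121C, near copies between which reads can be divided unevenly, had changes of -0.06 and -0.44. The related pseudogene rows POM121L8P and POM121L10P had changes of 0.33 and 0.01. AAAS, which NDC1 anchors at the pore, followed the mouse, with 7.24, 13.2 and 5.62 CPM in LSC, against 6.16, 17.7 and 5.63 CPM in bulk, highest in mouse 2 in both populations.

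The general mRNA export receptor and its cofactors, which do not use the Ran cycle, held no gene past the threshold. NXF1 had 136, 61.8 and 144 CPM in LSC, against 104, 73.7 and 45.1 CPM in bulk. Mice disagreed in direction (0.40, -0.25 and 1.67 in mice 1, 2 and 3), and the log2 change of 0.60 did not pass (adjusted p = 0.457). NXT1 had 3.69, 1.14 and 2.7 CPM in LSC, against 0.342, 2.37 and 1.73 CPM in bulk, on 2 to 50 reads per library, and NXT2 had a change of -0.01. RANBP9 and RANBP10, scaffold proteins of a ubiquitin ligase complex that matched by name, had changes of -0.52 and -0.44. NUP50-AS1, an antisense row whose reads may not be told from NUP50 without strand, had a change of -0.33. NUP62CL, a gene related to NUP62, had 0 reads in each LSC library, against 2.74, 1.35 and 0.896 CPM in bulk. Its 46 bulk reads, set against a floor of 3 reads over the LSC group, gave a 19.8-fold lower level in LSC. The floor covers counting error in LSC only. Counting error in bulk and the spread between libraries did not enter, so this fold is not a lower bound. NUP62CL did not reach the minimum level for the test. In the authors' deposited table it had the lowest false discovery rate of the 69 rows, 0.091, and 6 of the 69 had an unadjusted p under 0.05, against 12.4% of all rows of that table.

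Members also differed in how far they followed the mouse rather than the population. The share of the sum of squares of log2 CPM between populations had a median of 42.3% over the 67 rows, against 26.8% over all genes, and the share between mice 38.0%, against 43.8%. CSE1L was at one end, with 95.7% between populations and 3.62% between mice. XPO1 was near the other, with 8.43% between populations and 87.3% between mice, as were AAAS (95.4% between mice) and RANGAP1 (75.3%). SEH1L and NXT1 followed neither, with 21.2% and 11.6% between mice and 0.422% and 20.1% between populations. With 3 mice and 2 populations these shares are descriptions and are not adjusted for the number of groups.

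**Figure D4:**
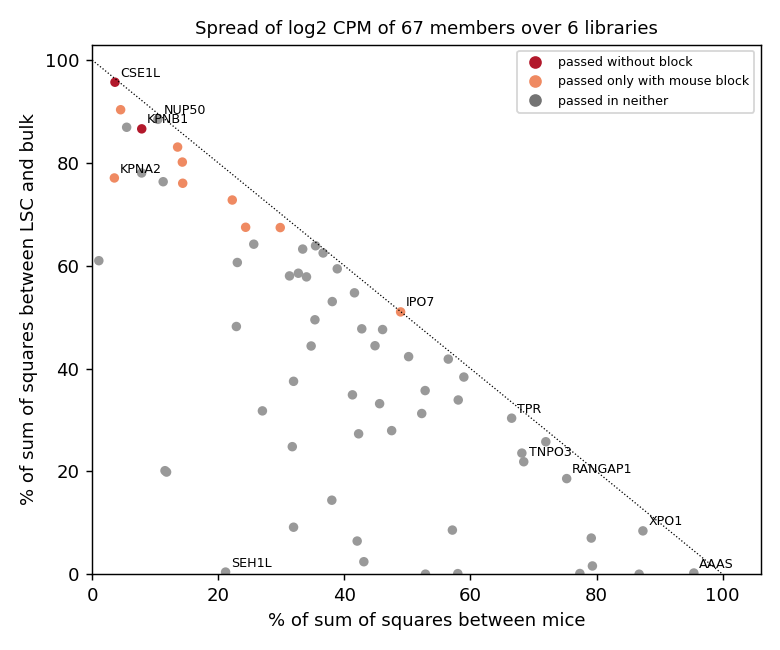
Share of the sum of squares of log2 CPM between mice (x axis, %) and between LSC and bulk (y axis, %) for the 67 tested rows, with the dotted line where nothing is left over. CSE1L and KPNB1 lie at the top left, and XPO1 and AAAS at the bottom right.

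Other genes of the nuclear envelope, mRNA export and the Ran pathway were taken from a list of 48, of which 47 were in the table and tested. Without the block 2 fell, against 1.33% of all genes, and 0 rose, against 2.71%. At an unadjusted p under 0.05, 6 were lower, against 10.1% of all genes, and 1 higher, against 10.2%, and voom on recovered reads called 2 lower and 0 higher. With the block 5 fell (10.6%, against 7.71% of all genes) and 2 rose, against 8.25%. The median log2 change was -0.35, with 33 of 47 negative (70.2%, against 50.2% of all genes). SYNE2 and SYNE1, large proteins that link the nuclear envelope to the cytoskeleton, fell. SYNE2 had 95.4, 66.8 and 29.7 CPM in LSC replicates 1, 2 and 3, against 499, 289 and 634 CPM in bulk replicates 1, 2 and 3, and SYNE1 had 51.3, 86.4 and 43.7 CPM in LSC replicates 1, 2 and 3, against 447, 348 and 142 CPM in bulk replicates 1, 2 and 3. Both were far apart between populations, 7.85-fold lower (adjusted p = 0.0095) and 4.84-fold lower (0.0272). The call of SYNE2 was lost without both libraries of mouse 1 or of mouse 2 (adjusted p = 0.0975 and 0.0584) and without a trend in the variance (0.051). That of SYNE1 was lost without LSC replicate 1 or 3 or bulk replicate 1 or 2 (0.0843 to 0.0947), without mouse 1 or 2 (0.263 and 0.112) and without the trend (0.0891). In the authors' deposited table SYNE2 and SYNE1 had false discovery rates of 0.133 and 0.191.

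Of the pathway genes called with the block but not without it, LMNB1, which encodes lamin B1, had 57.3, 34.4 and 18.2 CPM in LSC, against 154, 85.7 and 94.6 CPM in bulk, and LBR, the lamin B receptor, had 62.5, 63.3 and 35.7 CPM in LSC, against 119, 117 and 91.7 CPM in bulk. Both lay wholly below bulk, with log2 changes of -1.71 (adjusted p = 0.00429 with the block, 0.067 without) and -1.06 (0.0135 and 0.104). LMNB1 also passed without the block under log2(CPM + 1), under quantile normalization and without LSC replicate 1 (adjusted p = 0.0435, 0.0498 and 0.0486). SENP1, a SUMO protease, had a change of -0.91 (0.041 and 0.184). SEC13, a protein of the Y complex and of the COPII vesicle coat, had 25.5, 23.5 and 37.9 CPM in LSC, against 11.3, 14.6 and 13.1 CPM in bulk and was 2.19-fold higher (0.0314 and 0.104). PHAX, an adaptor for export of small nuclear RNA by XPO1, was the other gene that rose with the block (0.79, adjusted p = 0.0325, 0.321 without), and was named after its value was seen.

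Summed over genes, the 26 importins and exportins had 1554, 1302 and 1166 CPM in LSC replicates 1, 2 and 3, against 2278, 1944 and 2160 CPM in bulk. The 28 nucleoporins had 2368, 1785 and 2027 CPM in LSC, against 2813, 2301 and 2759 CPM in bulk. The importin and exportin sums did not overlap between populations, and the nucleoporin sums did, since LSC replicate 1 was above bulk replicate 2. That overlap rested on TPR, the nucleoporin with the most reads. TPR had 802 CPM in LSC replicate 1 and 595 CPM in bulk replicate 2, a wider gap than between the sums of these libraries. The G2 and M phase genes had 2004, 1787 and 1225 CPM in LSC, against 6320, 4627 and 8893 CPM in bulk, and their difference was widest in mouse 3. The members' differences were also widest in mouse 3 for CSE1L, KPNB1, KPNA2, KPNA3, NUP153, NUP155 and NUPL2, but not for XPOT, NUP188, IPO5 or IPO7. Whether the G2 and M phase genes account for the members' differences was not tested.

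**Figure D5:**
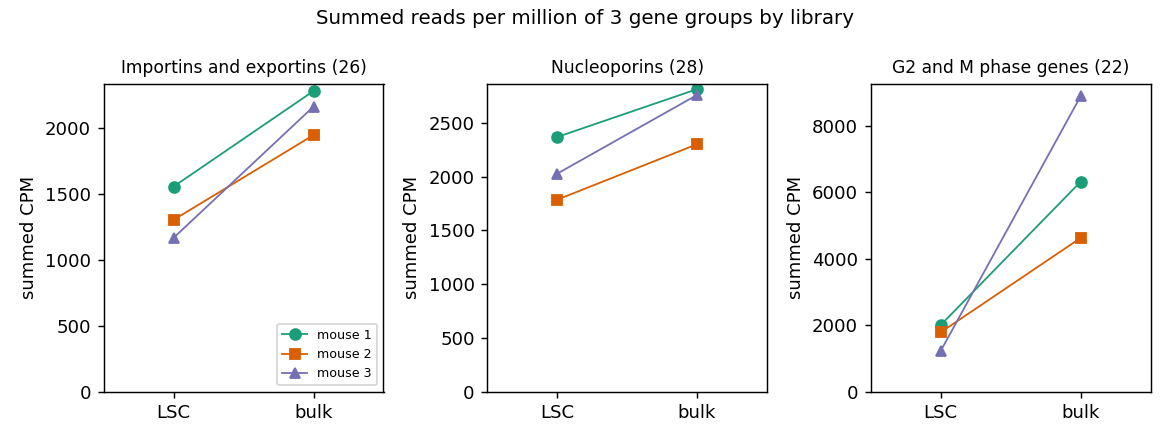
Summed CPM (y axis) of 26 importins and exportins, 28 nucleoporins and 22 genes of the G2 and M phases in LSC (left) and bulk (right), with lines joining the libraries of 1 mouse. All sums are lower in LSC in each mouse, and the groups overlap for the nucleoporins alone, where TPR is the largest term.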

How the data were processed

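A NuGEN Ovation kit amplified the RNA of sorted cells, per the labels' protocols. RSEM, Bowtie2, edgeR and the build hg19 are named in the submitters' processing notes, with no version or role. The organism label names the mouse host, while symbols and build are human. The authors' deposited values are log2 CPM with a small prior (a shared floor of 0.0197 CPM), read from the values. The authors' deposited p-value, false discovery rate and likelihood ratio score are printed only with that table named, and its log2 fold change is coded bulk minus LSC. Subtracting the floor gave CPM, and reads that were whole within 0.1 for 100% of values. They are estimates, since RSEM values may have been rounded.

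The 13755 of 13892 genes that reached 1 CPM or more in 3 libraries were compared on the deposited log2 values with limma 3.58.1 in R 4.3.3 (eBayes with trend, two-sided, Benjamini-Hochberg over all genes). The code was tested on simulated data with 1 spread setting for all genes and no mouse effect. There 40 of 66 genes with a log2 change of 1 in size were called, and 67 of 67 with 2. How often changes of these sizes were missed in the real libraries was not tested. LSC and bulk libraries of the same mouse deviated together (correlations of 0.33, 0.35 and 0.30 across genes). The shared mouse pairs them by design, but the fit without the block, its intervals and its counts did not use that pairing. The blocked result is printed beside each named gene or list whose call or count it changes. No pair of libraries was alike within sampling noise. An exact permutation test of 3 against 3 cannot go below 0.1. Members and lists were chosen with earlier results of these data known. Named genes are 14 fixed members, those called with or without the block, the extremes of each role, and up to 6 pathway genes, and other members are given after their values were seen. Alternatives were another pseudocount, filters, 3 scalings, no trend, the block, leaving out libraries or mice and, added after seeing the data, voom on recovered reads. Human sequences and coordinates were not used here.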

Additional observations from a re-analysis of the deposited data

How the results depend on the processing

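Over 19 alternative settings for each of 45 named genes, 785 of 853 values kept their direction and side of the threshold (IPO4 and NXT1 were not tested under a filter of 5 CPM). Calls were gained in 30 cases and lost in 25, and 13 uncalled values changed sign. With the replicate block 1135 genes rose and 1060 fell, 1 member rose and 10 fell, and 2 pathway genes rose and 5 fell. The block changed no other call of the named genes than those given with it. With voom and the replicate block these numbers were 1216, 1217, 1, 12, 2 and 5. Without a trend in the variance 197 genes rose, 54 fell, and 0 members and 0 pathway genes fell. With log2(CPM + 1) 302 genes fell. Leaving out 1 library or mouse gave 37 to 346 genes higher and 0 to 169 lower, 0 to 1 members lower, 0 to 2 pathway genes lower and a member median of -0.45 to -0.30.

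Sign changes were as follows. NXT2 was at 0.043 with scaling outside MTRNR2L and 0.025 with voom on recovered reads. When a library or mouse was left out, NXT2 lay between -0.361 and 0.375, XPO1 between -0.438 and 0.060 (positive without LSC replicate 2), NUP93 between -0.095 and 0.379, NXT1 between -0.202 and 1.998, NUP50-AS1 between -0.680 and 0.059, and IPO5P1 between -0.102 and 0.289. The cause was not tested. Depth limits the genes with few reads, such as NXT1, KPNA5 and NUP35.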
